A study of Rattus norvegicus with 12 samples.

Results

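The 10 genes described here encode NF-kB subunits and the proteins that restrain or release them: Nfkb1, Nfkb2, Rela and Relb (subunits), Nfkbia, Nfkbib and Nfkbie (cytoplasmic IkB inhibitors), Nfkbiz (a nuclear IkB), Tnfaip3 (the ubiquitin editor A20) and Ikbkb (an IkB kinase subunit). They were taken by gene name from the non-control probes of one-colour Agilent rat arrays. All 10 were found, among 36174 gene names, on 11 of 45598 probes. The RNA was total RNA from N27, an immortalised cell line derived from rat embryonic midbrain that the labels describe as dopaminergic neural. One group of 6 samples had been kept in 25 µM fipronil, a phenylpyrazole insecticide that blocks GABA-gated chloride channels, for 24 h, and the other 6 samples were untreated controls; the labels name no solvent for either group. All 12 samples therefore come from a single line, and the labels do not say whether they were separate cultures. The p-values set each group difference against the spread of these samples within groups, and part or all of that spread may be technical.

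NF-kB is a family of dimeric transcription factors. In resting cells IkB proteins hold most dimers in the cytoplasm; receptors for cytokines and microbial products signal through adaptor proteins and ubiquitin chains to the IkB kinase, which marks the IkBs for destruction and frees the dimers to enter the nucleus. Several inhibitors, Nfkbia and Tnfaip3 among them, are themselves targets of NF-kB and so form feedback loops, while the nuclear protein encoded by Nfkbiz binds NF-kB on chromatin and is needed for a subset of its secondary targets. In the nervous system the pathway is best known for inflammatory signalling in glia and for survival and plasticity in neurons. The array measured transcript levels only, and most control of this pathway acts on protein location and stability. In RNA from a whole culture, fewer cells of a kind and less RNA per cell cannot be told apart.

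The promoters are shown first because many genes of this family carry the sequence that NF-kB itself binds. RefSeq promoter windows of the rat GRCr8 assembly, 250 bases before to 50 after the annotated start, were available for 8 members; Relb and Ikbkb were not among them. The 10-letter NF-kB consensus, searched on both strands, had at least 1 match in 6 of these 8 windows, against 2515 of 33469 windows of the same length (7.51%). The share was 34.4% for a list of textbook NF-kB targets (11 of 32 windows), 26.3% for upstream receptors and adaptors (5 of 19), 27.3% for other Rel and IkB family genes and their regulators (3 of 11) and 20.7% for other kinase and ubiquitin regulators (6 of 29). The members' windows had a median GC content of 64.0%, against 51.7% over all windows, and the consensus is itself rich in G and C. Each matched stretch is printed 5′ to 3′ on the strand of the gene, with the matches in capitals.
Nfkb1, chr2:226805435-226805489, minus strand: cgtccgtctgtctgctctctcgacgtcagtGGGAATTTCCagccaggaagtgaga
Nfkb2, chr1:255108324-255108378, plus strand: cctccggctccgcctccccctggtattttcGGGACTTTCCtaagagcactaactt
Nfkbia, chr6:78597079-78597133, minus strand: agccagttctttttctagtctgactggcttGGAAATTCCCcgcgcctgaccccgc
Nfkbie, chr9:22948012-22948066, minus strand: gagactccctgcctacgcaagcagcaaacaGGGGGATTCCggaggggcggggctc
Nfkbiz, chr11:58251678-58251732, plus strand: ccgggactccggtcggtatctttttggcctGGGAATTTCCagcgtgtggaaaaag
Tnfaip3, distal match, chr1:15544125-15544179, minus strand: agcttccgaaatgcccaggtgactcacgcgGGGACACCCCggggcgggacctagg
Tnfaip3, proximal pair, chr1:15544010-15544076, minus strand: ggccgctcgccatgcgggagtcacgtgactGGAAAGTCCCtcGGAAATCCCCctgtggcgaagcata

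Nfkb1, Nfkbiz and Nfkbia held the same 10 letters, GGGAATTTCC, the last of them on the opposite strand, where it reads GGAAATTCCC; 25 of the 33469 windows (0.0747%) held this word. Nfkb2 and Tnfaip3 shared GGGACTTTCC, held by 37 windows (0.111%), again with the Tnfaip3 copy on the opposite strand. The match lay at -31 to -22 in Nfkbia, -20 to -11 in Nfkb2, -13 to -4 in Nfkbiz and just past the start in Nfkb1 (bases 4 to 13), while the match of Nfkbie lay further upstream (-164 to -155). Tnfaip3 had 3 matches, and 378 of all windows held 2 or more. No match was found in the windows of Rela and Nfkbib, which says only that these letters were absent from those 300 bases. A match is a stretch of letters and not a measured binding site.

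**Figure D1:**
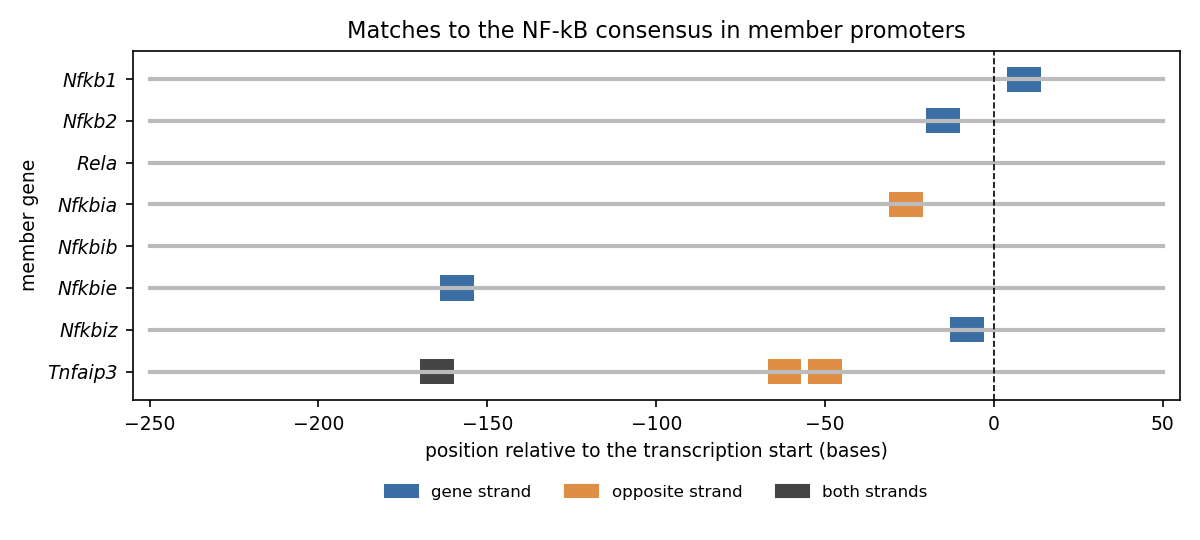
Position in bases from the annotated start of each match to the NF-kB consensus in the 300-base promoter windows of the 8 members with a RefSeq window. Tnfaip3 carries 3 matches, 5 members carry 1 each, and Rela and Nfkbib carry none.

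The probes decide which part of a transcript was read, so those behind the main values are given by their first 30 bases, in lower case, with the positions that the array files give on rn4.
Nfkbiz, chr11:45810786-45810845, plus strand: gaagtgtgtagatcaataaaatagctagtg
Nfkbia, chr6:75730438-75730497, minus strand: aagtgtggggctgatgtcaacagagtaacc
Nfkb1, measured probe, chr2:233091704-233091763, minus strand: cactgctatctctgaacaaaatgcctcaca
Nfkb1, dim probe, chr2:233100929-233107175, minus strand: atcatcaacatgagaaacgatctgtatcag
Tnfaip3, no rn4 position in the files: gggagccttcattctgccttatttattttg

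The dim Nfkb1 probe maps across 6247 bases of genome, as a probe over a splice junction does. It was well above background on 1 of 12 arrays and was not tested. Every other member had a single probe, and all of these were well above background on all 12 arrays except Tnfaip3, which was on 10. Levels are log2 signals relative to each array's own 75th percentile, so a level of 0 sits at that percentile, and levels of different probes are not compared. Fold changes are antilogs of differences on that scale.

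The arrays lie on 3 slides. Both treatments met only on slide 1, with fipronil replicates 7 and 8 beside control replicates 2 and 3. Slide 2 carried the 4 other controls and slide 3 the 4 other fipronil samples. The 75th percentile of raw signal was 379 to 472 on slide 2, 111 to 140 on slide 3, and 245 to 279 on slide 1. Outside slide 1, treatment and slide cannot be told apart, so each member's difference is given over all arrays, within slide 1, and as slide 3 minus slide 2. Of 9 dopaminergic markers, 2 passed the filter for detection and 5, including the dopamine transporter Slc6a3, were not well above background on any array; the tested ones were Th, the dopamine-making enzyme (-0.48, adjusted p 0.152; 0.096 within slide 1), and Aldh1a1 (-0.84, adjusted p 0.0678; -0.98 within slide 1). Of 9 neuronal markers 3 were tested, and Ncam1, an adhesion molecule, rose by 0.73 (adjusted p 0.0171, and 0.25 within slide 1). Stx1a differed by 0.62 (adjusted p 0.0633) and Tubb3 by -0.35 (adjusted p 0.678). Within slide 1 Stx1a differed by 0.14 and Tubb3 by 1.09. The part of these markers in the members' results was not tested. Of 8 leukocyte and microglial markers, Cd14, Cx3cr1 and Cd68 were well above background on all 12 arrays. None of these passed the test (-0.38, 0.27 and 0.32, with adjusted p 0.217, 0.349 and 0.133). Within slide 1 they differed by 0.36, -0.24 and 0.23 in the same order. Ptprc, Itgam, Csf1r and Aif1 were not well above background on any array, and the summed level of the 3 tested markers ran from 0.24 to 0.45 in controls and from 0.18 to 0.47 with fipronil.

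Nfkbiz was the 1 member of 10 that passed the test, and it fell with fipronil. Its control arrays read -1.67 and -1.78 on slide 1 and -1.98, -2.02, -2.0 and -1.60 on slide 2. The fipronil arrays read -2.49 and -2.89 on slide 1 and -2.11, -2.33, -2.46 and -2.25 on slide 3. The groups did not overlap, and the lowest values belonged to the fipronil arrays that shared a slide with controls. The control mean was -1.84 ± 0.18 and the fipronil mean -2.42 ± 0.27 (SD, n = 6 each). The difference was -0.58 ± 0.14 (SE; 95% confidence interval -0.88 to -0.28), or 1.5-fold lower, with an adjusted p of 0.0334 by limma with Benjamini-Hochberg adjustment over 13542 genes. At this threshold 2.77% of all genes tested were lower, 2.24% higher and 5.01% changed in either direction. Every fipronil array lay below every control for 2.55% of them, and the groups did not overlap, in either direction, for 4.18%.

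Nfkbiz was lower with fipronil by either slide comparison: -0.97 within slide 1 and -0.39 for slide 3 against slide 2. With slide as a fixed block, where the estimate rests on slide 1, the interval was -1.41 to -0.52 and the adjusted p was 0.0938; with slide as a random block the difference was -0.70 and the adjusted p 0.0828, and no member passed (0.155% of all genes did). Under the fixed block 0.0886% of all genes tested passed the adjusted threshold in limma, and no member did; Nfkbiz and Nfkbia passed at an unadjusted p under 0.05, as did 19.0% of all genes. The gap between the slide 1 difference and the other slides' difference was -0.58 ± 0.25 (SE; adjusted p 0.133). The call was close to the threshold: it was kept when fipronil replicate 1, 7 or 8 was left out, and lost without any 1 of the 6 controls or of fipronil replicates 2, 3 and 4, at differences of -0.64 to -0.49 and adjusted p of 0.0237 to 0.0769. Of the 6 other scalings, 4 kept the call, and 1, normexp background modelling followed by percentile scaling, turned the sign (0.11, adjusted p 0.492). Among those that kept it, quantile scaling and the deposited quantile-normalized values were near duplicates (-0.59 in both, adjusted p 0.0237 and 0.0238 in limma). Normexp followed by quantile scaling gave -0.29, and the slide 1 difference of -0.97 was -0.40 and -0.38 under the normexp settings with quantile and percentile scaling. The percentile setting also moved the median difference of all genes from -0.077 to 0.17.

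**Figure D2:**
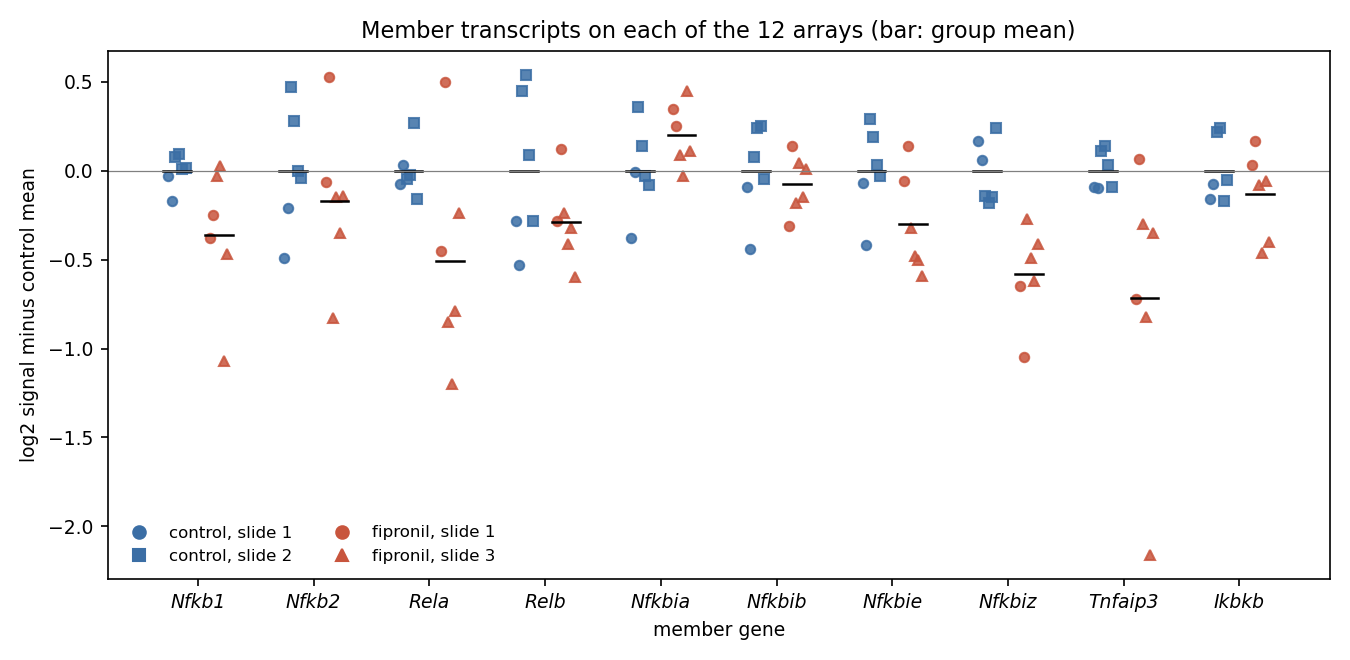
Log2 level of each member on each array, less that member's control mean, for the 6 control and 6 fipronil arrays, with the slide marked and the group mean drawn. For Nfkbiz every fipronil array lies below every control; for the other 9 members the groups overlap.

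The other inhibitors did not pass. Nfkbia encodes IkB-alpha, the fast-turnover inhibitor that NF-kB resynthesises after each pulse of activity. Its controls ran from 2.0 through a median of 2.37 to 2.75, and its fipronil arrays from 2.36 through 2.56 to 2.84. The groups overlapped between 2.36 and 2.75, and the lowest array was control replicate 2. The difference was 0.20 ± 0.13 (SE; interval -0.087 to 0.49; adjusted p 0.366). Within slide 1 the fipronil arrays read 2.74 and 2.63 and the controls 2.0 and 2.38, a difference of 0.49 with a blocked interval of 0.029 to 0.96 and an adjusted p of 0.24. Slide 3 minus slide 2 gave 0.057. Nfkbia was the 1 member with a positive difference over all arrays, and the sign was negative (-0.066) under background modelling with percentile scaling.

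Nfkbie encodes IkB-epsilon, an inhibitor that is made and degraded more slowly. Controls ran from -2.52 through -2.10 to -1.81 and fipronil arrays from -2.70 through -2.51 to -1.96, and the groups overlapped. The difference was -0.30 ± 0.16 (SE; interval -0.64 to 0.034; adjusted p 0.245). Under normexp with percentile scaling it passed as higher in limma (0.24, adjusted p 0.0331), as did 5116 of 13542 genes. The slides gave opposite signs: both fipronil arrays of slide 1 (-2.16 and -1.96) were above both its controls (-2.17 and -2.52), a difference of 0.28, while all 4 arrays of slide 3 were below all 4 of slide 2, a difference of -0.60. The gap between these was 0.88 ± 0.22 (SE) with an adjusted p of 0.038; Nfkbie was the 1 member of 10 to pass this test, which 9.14% of all genes passed. Slides of the same treatment differed too: controls read 0.36 higher on slide 2 than on slide 1, and for fipronil slide 3 minus slide 1 was -0.52.

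Nfkbib encodes IkB-beta, another cytoplasmic inhibitor. It read from -2.51 through -2.06 to -1.82 in controls and from -2.39 through -2.15 to -1.94 with fipronil, with the fipronil arrays inside the control range. The difference was -0.076 ± 0.14 (SE; interval -0.37 to 0.22; adjusted p 0.763). It was 0.18 within slide 1 and -0.20 for slide 3 minus slide 2. Under normexp with percentile scaling it passed as higher in limma (0.34, adjusted p 0.013), as did 5116 of 13542 genes.

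Tnfaip3 removes and edits the ubiquitin chains that activate the IkB kinase. Controls ran narrowly from -2.85 through -2.78 to -2.62, and fipronil arrays from -4.91 through -3.29 to -2.69. Fipronil replicate 3, on slide 3, was the lowest array, and the probe was not well above background in fipronil replicates 2 and 3. The SD was 0.11 in controls and 0.78 with fipronil, and the difference of -0.71 ± 0.29 (SE; interval -1.33 to -0.092) had an adjusted p of 0.146. Without fipronil replicate 3 the difference was -0.42 (adjusted p 0.158). Within slide 1 it was -0.23, with fipronil replicate 8 (-2.69) above both controls and replicate 7 (-3.47) below them, and slide 3 minus slide 2 gave -0.95. The sign was positive under background modelling with percentile scaling (0.39, adjusted p 0.0124 in limma), where 5116 of 13542 genes passed as higher.

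**Figure D3:**
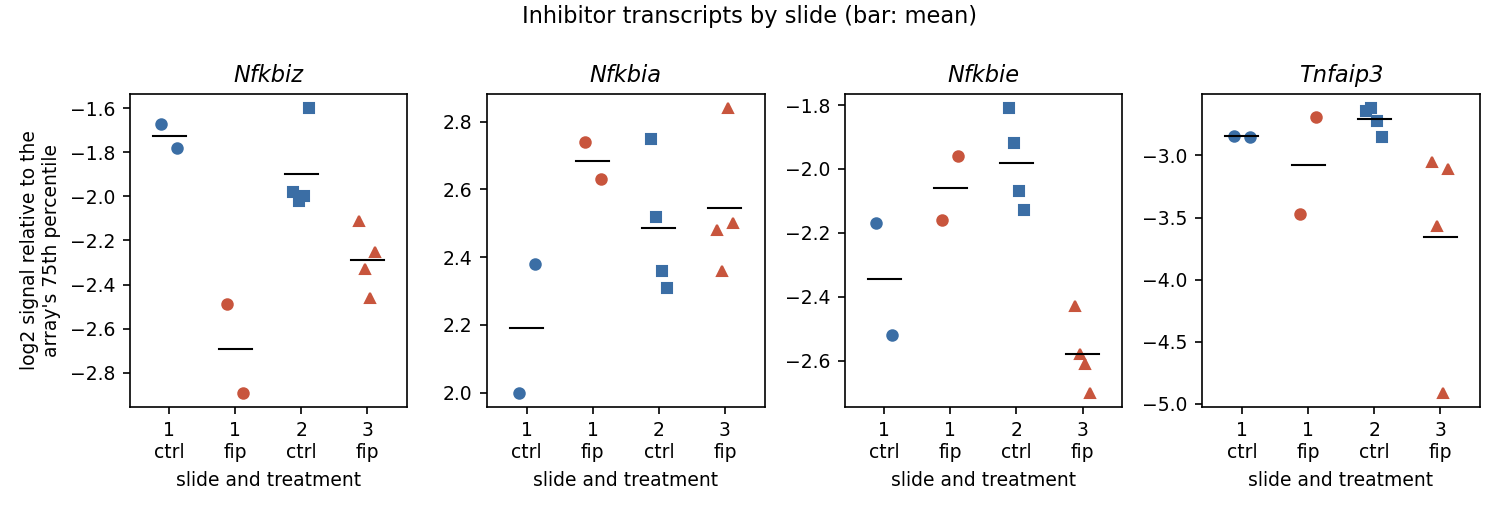
Log2 level relative to the 75th percentile of the array for Nfkbiz, Nfkbia, Nfkbie and Tnfaip3, with arrays grouped by slide and treatment. The inhibitor Nfkbib is not drawn. Nfkbiz is lower with fipronil in both slide comparisons, Nfkbie is higher with fipronil on slide 1 and lower on slide 3 than on slide 2, and 1 array, fipronil replicate 3, sets the low end of Tnfaip3.

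None of the 4 subunit genes passed. Rela encodes p65, the main transactivating subunit. Its controls ran from -0.47 through -0.34 to -0.034 and its fipronil arrays from -1.50 through -0.93 to 0.19. Fipronil replicate 8 (0.19) was above every control, and the other 5 fipronil arrays were below every control. The difference was -0.50 ± 0.23 (SE; interval -1.0 to -0.0083; adjusted p 0.193). Without fipronil replicate 8 it was -0.70, with an adjusted p of 0.0185 in limma. In that fit 2022 of 13542 genes passed, against 678 with all arrays. The array left out is on slide 1, the only slide with both treatments. Within slide 1 it was 0.045, with the groups overlapping, and slide 3 minus slide 2 was -0.78, with no overlap.

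Nfkb1 encodes p105, the precursor of p50, the usual partner of p65. The measured probe ran from -1.13 through -0.95 to -0.87 in controls and from -2.03 through -1.28 to -0.94 with fipronil. Fipronil replicate 3 was the lowest array, as it was for Tnfaip3, and fipronil replicates 1 and 2 lay within the control range. The difference was -0.36 ± 0.16 (SE; interval -0.72 to -0.0082; adjusted p 0.191), and -0.22 without fipronil replicate 3 (adjusted p 0.318). Slide 1 alone gave -0.22, with both fipronil arrays below both controls, and slide 3 minus slide 2 gave -0.44.

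Nfkb2 and Relb encode p100, precursor of p52, and the subunit it pairs with in the non-canonical pathway. Nfkb2 ran from -0.49 through -0.021 to 0.47 in controls and from -0.83 through -0.15 to 0.53 with fipronil, a wide overlap. The difference was -0.17 ± 0.21 (SE; interval -0.63 to 0.29; adjusted p 0.654). Both fipronil arrays were above both controls on slide 1 (0.58), and all of slide 3 was below all of slide 2 (-0.54); the gap of 1.13 ± 0.34 (SE) between these had an adjusted p of 0.0599. Relb ran from -0.048 through 0.38 to 1.02 in controls and from -0.12 through 0.18 to 0.60 with fipronil. Its highest arrays were control replicates 5 and 6, both on slide 2. The difference was -0.29 ± 0.19 (SE; interval -0.70 to 0.13; adjusted p 0.369), with 0.32 within slide 1 and -0.59 for slide 3 minus slide 2; the gap of 0.92 had an adjusted p of 0.0865.

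Ikbkb encodes IKK-beta, the kinase that phosphorylates IkB-alpha. It ran from -1.60 through -1.49 to -1.19 in controls and from -1.88 through -1.49 to -1.25 with fipronil, with equal medians. The difference was -0.13 ± 0.14 (SE; interval -0.42 to 0.16; adjusted p 0.577). On slide 1 it was 0.22, with both fipronil arrays above both controls, and slide 3 minus slide 2 gave -0.31.

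Across the members, 9 of 10 differences were negative over all arrays, with a median of -0.30. Over all genes tested, 59.7% were lower, with a median of -0.077. The count of negative members was 9 under 5 of the 6 other scalings and 4 under background modelling with percentile scaling. Among those 5, quantile scaling and the deposited quantile-normalized values were near duplicates (member median -0.29 in both). At an unadjusted p under 0.05 there were 4 (Nfkbiz, Tnfaip3, Nfkb1 and Rela), against 25.0% of all genes. Within slide 1 the balance was the other way, with 7 of 10 higher and a median of 0.20, against 48.4% of all genes higher and a median of -0.016. Slide 3 minus slide 2 was negative for 9 of 10 with a median of -0.49, against 58.5% and -0.10. Fitted alone, slides 2 and 3 gave 2 members past the adjusted threshold, Nfkbie (adjusted p 0.0124) and Rela (adjusted p 0.0267), both lower, where 22.5% of all genes passed; 5 members did not overlap there, all lower with fipronil, against 27.0% of all genes in either direction. Nfkbiz, Tnfaip3 and Nfkb1 were the 3 members lower by both comparisons, and Nfkbia was the 1 member higher by both. On slide 1, where 2 arrays met 2, the groups did not overlap for 6 members (4 higher, 2 lower), against 53.7% of all genes.

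**Figure D4:**
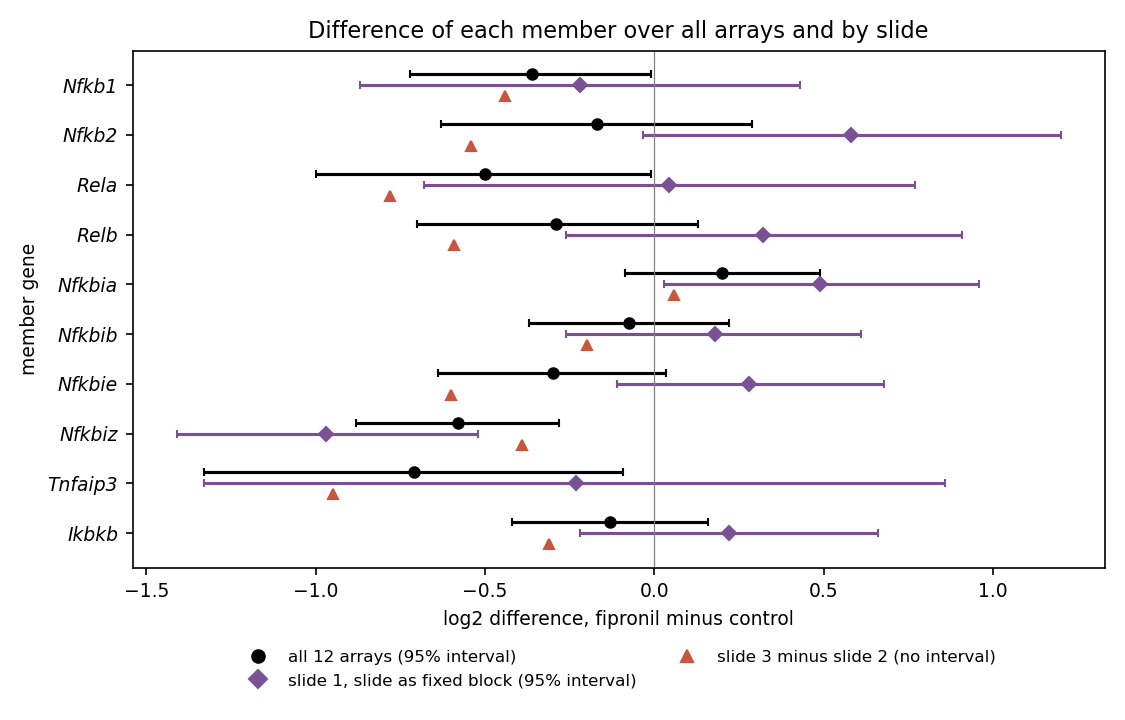
Log2 difference, fipronil minus control, of each member over all 12 arrays with its 95% confidence interval. The difference within slide 1 is drawn with the 95% interval of the fixed slide block, and slide 3 minus slide 2 without one. The interval of Nfkbiz runs from -0.88 to -0.28, and 6 members have a positive slide 1 value beside a negative slide 3 minus slide 2 value.

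The members were also described by how they moved together over the 12 arrays, which share slides. Of 45 pairs, 36 had a Pearson correlation above 0, with a median of 0.38. Differences between slides and treatments enter these values, and the share over all pairs of genes was not computed. The highest was between Relb and Nfkbie, at 0.87, and it was 0.83 after each slide and treatment mean was removed. Nfkb1 and Tnfaip3 followed each other at 0.84, but at 0.38 without fipronil replicate 3. Nfkbiz and Nfkbia gave the lowest value, -0.65, or -0.41 after the slide and treatment means were removed.

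Over all genes tested, those whose levels were most like Nfkbiz over the 12 arrays were Dhx15 (r 0.93), an RNA helicase of splicing, Ccnh (0.92), the cyclin of the CDK-activating kinase, and Mcm4 (0.92), a replication helicase subunit. Closest to Nfkbia were Lgals8 (0.95), Lurap1 and Calm3 (0.92 each), and to Nfkbie Lig1 (0.97), Ptpmt1 and Thoc3 (0.95 each). Nfkbib had weaker likenesses, to Idh3g (0.87), Mif (0.86) and Reep4 (0.85). Tnfaip3 was nearest to Rnf113a1 (0.94), Arpc1a (0.93) and Akirin2 (0.92), the last a nuclear cofactor of NF-kB target genes. For Nfkb2 the nearest was Nkiras2 (0.96), a small GTPase-like protein that binds IkB, then Got2 and Prdx2 (0.94 each). Rela was nearest to Decr2 (0.96), Elovl1 and Fzd2 (0.95 each), Relb to Cox5b and Trub2 (0.97 each) and Dnajc5 (0.96), Nfkb1 to Zfp512b (0.97), Naa12 (0.94) and Pim2 (0.92), and Ikbkb to Desi2 (0.94), Ada and Arhgap10 (0.92 each). These are the highest of 13542 values each, over arrays that fall into slides, and none was tested.

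The rest of the pathway was read from 4 lists of textbook genes. Of 24 upstream receptors and adaptors, 14 were tested and 3 fell, with none higher, where 2.77% of all genes were lower. With slide as a fixed or a random block none of the 14 passed in limma, where 0.0886% and 0.155% of all genes did. Without a block 5 passed at an unadjusted p under 0.05, where 25.0% of all genes did. Tlr2, a receptor for bacterial lipoproteins, fell from 1.0 ± 0.16 to 0.43 ± 0.18 (SD, n = 6 each), with no overlap (-0.56, adjusted p 0.0198 in limma). Every fipronil array lay below every control for 2.55% of all genes. Myd88, the adaptor of Toll-like and interleukin-1 receptors, fell by 0.56 (adjusted p 0.0395), and Il1rap, the interleukin-1 receptor's accessory chain, fell by 0.50 (adjusted p 0.04). Within slide 1 the differences of Tlr2, Myd88 and Il1rap were -0.23, -0.36 and -0.21, and slide 3 minus slide 2 gave -0.73, -0.66 and -0.65. The list's median was -0.25, and 0.022 within slide 1. The count of the list ran from 0 without control replicate 6 to 4 without fipronil replicate 8. In those fits 261 and 2022 of all 13542 genes passed.

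Of 40 textbook target genes 26 were tested, and 4 fell with none higher: the chemokines Cxcl2 and Cxcl3, the stress-response gene Ier3 and the transcription factor Irf1, where 2.77% of all genes were lower. With slide as a fixed or a random block none of the 26 passed in limma, where 0.0886% and 0.155% of all genes did. Without a block 13 passed at an unadjusted p under 0.05, where 25.0% of all genes did. Cxcl2 fell from 0.90 ± 0.37 to -0.031 ± 0.36 (SD, n = 6 each) with no overlap, a difference of -0.93 ± 0.20 (SE; adjusted p 0.0232 in limma). Every fipronil array lay below every control for 2.55% of all genes. Ier3 fell by 0.65 (adjusted p 0.0295), Irf1 by 0.77 (adjusted p 0.0299) and Cxcl3 by 0.88 (adjusted p 0.0308), the last with no overlap. Within slide 1 these 4 differed by -0.44 (Cxcl2), -0.32 (Ier3), -0.13 (Irf1) and -0.91 (Cxcl3), and slide 3 minus slide 2 gave -1.18, -0.81, -1.09 and -0.87 in the same order. Csf3, a granulocyte growth factor, was higher with no overlap but did not pass (0.49, adjusted p 0.0511 in limma). It differed by 0.43 within slide 1 and by 0.53 for slide 3 minus slide 2. The groups did not overlap, in either direction, for 4.18% of all genes. Over all tested targets the median difference was -0.36 (20 of 26 lower), and it was 0.091 within slide 1. The count of targets past the threshold ran from 0 without control replicate 6 to 7 without fipronil replicate 8. In those fits 261 and 2022 of all 13542 genes passed. Il6, Il1b, Vcam1 and 11 other targets were not tested, since their probes were too dim or none carried the name.

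Of the 29 tested of 34 other kinase and ubiquitin regulators, limma called none, and 6 passed at an unadjusted p under 0.05, where 25.0% of all genes did. The smallest adjusted p belonged to Otulin, which cuts linear ubiquitin chains (-0.38, adjusted p 0.0829), Tnip2, a partner of A20 (0.37, adjusted p 0.125), and Ikbke, an IkB kinase relative (0.38, adjusted p 0.182). Within slide 1 these differed by -0.33, 0.31 and 0.62, and slide 3 minus slide 2 gave -0.40, 0.40 and 0.27. Of 10 other Rel and IkB family genes and their regulators, 6 were tested; limma called none, and 2 passed at an unadjusted p under 0.05. Commd1, which promotes degradation of p65, was 0.51 higher (adjusted p 0.0582), and Nfkbid, another nuclear IkB, differed by -0.31 (adjusted p 0.136) and Nkap by 0.19 (adjusted p 0.354). Commd1 differed by 0.11 within slide 1 and by 0.71 between slides 3 and 2, Nfkbid by -0.22 and -0.35, and Nkap by -0.084 and 0.32. Rel was not analysed here. With slide as a fixed block limma called no gene of any of the 4 lists, where 0.0886% of all genes passed. In that fit 1 of 14 upstream genes and 8 of 29 kinase and ubiquitin genes passed at an unadjusted p under 0.05. So did 1 of 6 Rel and IkB relatives and 10 of 26 targets, against 19.0% of all genes.

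**Figure D5:**
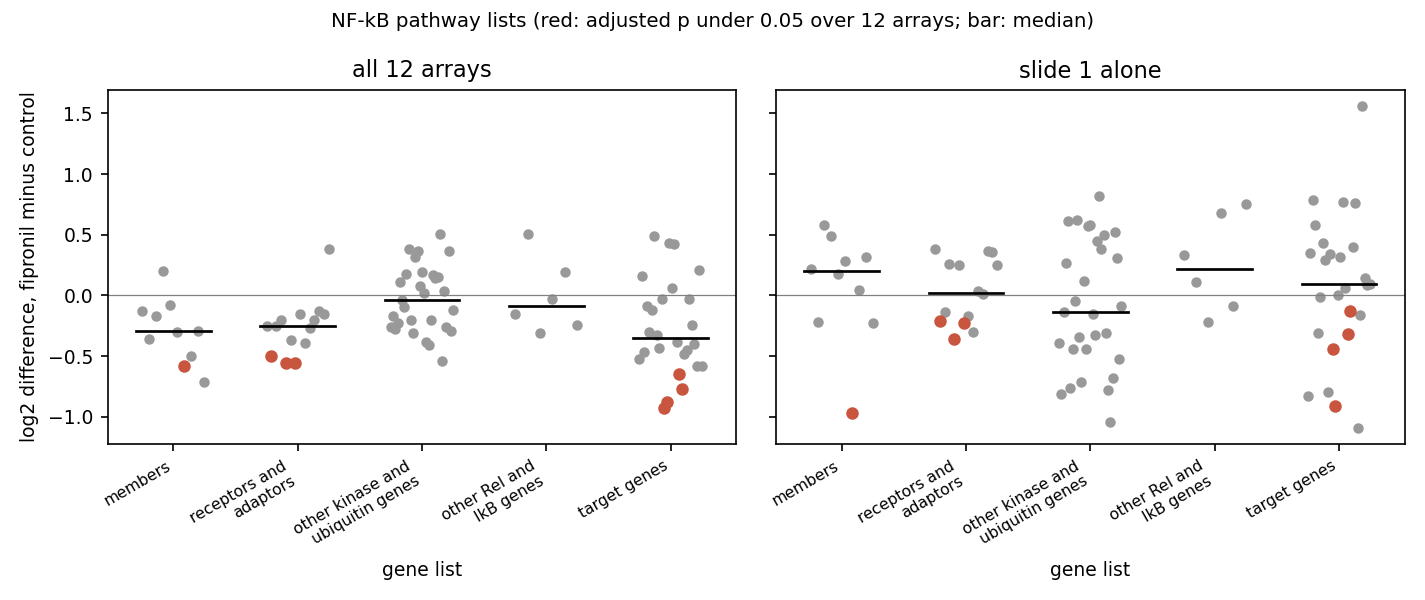
Log2 difference, fipronil minus control, of every tested gene of the members and of the 4 pathway lists, with the list median drawn and genes past the adjusted threshold marked. The marked genes are Nfkbiz, 3 upstream genes and 4 targets, all below 0.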

How the data were processed

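The 12 arrays were 1-colour (Cy3) Agilent rat arrays, 1 sample each, with 62976 spots. Spot intensities (processed signal, already background-subtracted) and well-above-background and outlier flags were deposited by the authors as Agilent Feature Extraction output (version 10.7, per the submitters' processing notes). A deposited log2 value table, titled by the authors as quantile-normalized, was used as an alternative; the median was 2.63 in each column, and each ranked the probes as its own array did (centring is not stated; rho at least 0.9946, against at most 0.9407 for any other array).

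Control spots were left out, and each array's 75th percentile over the other spots was subtracted from log2 intensity. Spots of 1 probe were averaged without those flagged as outliers, unless all its spots on that array were flagged. Each member probe had 1 spot, so no flag removed a member value. The 16291 probes well above background on at least 6 of 12 arrays were kept. The probe with the highest mean stood for each of 13542 genes. Probes were named through RefSeq by accession (21109), symbol (6684) or synonym (424), and 17381 kept the file's name; the Relb, Nfkbiz and Tnfaip3 probes matched by symbol. Fipronil and control were compared with limma 3.58.1 (lmFit, eBayes; R 4.3.3), with Benjamini-Hochberg adjustment over all genes at 0.05, after testing the code on simulated data. Alternatives were other scalings and background models (normexp, offset 50), filters and probe rules, slide as a fixed or random block, slides apart, each array left out, and a replicate block. The test of slide 1 against the other slides was chosen after seeing the data. The labels do not say whether the shared replicate numbers 2, 3, 7 and 8 pair samples. Correlations of their deviations were 0.43, 0.075, -0.11 and -0.31. Each compares arrays on different slides, so they cannot decide this.

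Depth has no counterpart on arrays: their number, 12 on 3 slides, limits the precision. Members and lists were chosen with earlier results of these data known. Genes named are all members, the 3 tested genes with the smallest adjusted p in each other list, and the 3 genes most correlated with each member; Cxcl3, Csf3 and the untested genes were added after their values were seen. Promoters came from a RefSeq table (GRCr8), while the array files use rn4.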

Additional observations from a re-analysis of the deposited data

Results flagged for a closer look

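The difference of Nfkbie within slide 1 and that between slides 3 and 2 had opposite signs, 0.28 and -0.60, and the gap of 0.88 ± 0.22 (SE) passed limma's test (adjusted p 0.038), as 9.14% of all genes did. Both slide 1 fipronil arrays were above both controls, the nearest at -2.16 against -2.17. On slide 1 the groups did not overlap, in either direction, for 53.7% of all genes. All 4 slide 3 arrays were below all 4 of slide 2, where 27.0% of all genes did not overlap in either direction. Which of slide and treatment the opposite signs follow was not tested. No array of the members' 20 groups of 6 stood far enough from the others to pass Dixon's gap test.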

How the results depend on the processing

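Of 279 recomputed member differences, 236 kept sign and side of the threshold, 15 kept the sign and lost the call, 3 kept the sign and gained one, and 25 turned sign, some of these with a changed call. All genes past the threshold numbered 678, and 6776 with normexp and percentile scaling (5116 of them higher) and 16313 without the filter on dim probes. They numbered 12 with slide as a fixed block, 21 as a random block, 0 on slide 1 alone, 3044 on slides 2 and 3, and 0 with the replicate block. Leaving out 1 array gave 228 to 2022. Members past it numbered 1, and 3 with normexp and percentile scaling, all higher (Nfkbib, Nfkbie and Tnfaip3), 2 on slides 2 and 3, and 0 with the percentile over detected probes (Nfkbiz -0.54, adjusted p 0.0706), either slide block, slide 1 alone or the replicate block (Nfkbiz -0.78, adjusted p 0.189); without 1 array, 0 to 2. Upstream genes numbered 3, and 1 with the percentile over detected probes, 7 with normexp and percentile, 5 without the filter, 7 on slides 2 and 3 and 0 in the 4 slide 1, slide block and replicate block fits (0 to 4 without 1 array). Kinase and ubiquitin genes numbered 0, and 9 with normexp and percentile, 2 without the filter, 1 with every probe on its own and 5 on slides 2 and 3 (0 to 1). Rel and IkB relatives numbered 0, and 1 with quantile scaling, either normexp setting, the percentile over detected probes, the deposited table, detection on 12 arrays, no filter, a trended prior, or slides 2 and 3 (0 to 1). Targets numbered 4, and 16 with normexp and percentile, 12 without the filter, 9 on slides 2 and 3 and 0 with the slide or replicate blocks or slide 1 alone (0 to 7). Signs turned with normexp and percentile scaling for Nfkb1 (0.011), Nfkbia (-0.066), Nfkbib (0.34), Nfkbie (0.24), Nfkbiz (0.11), Tnfaip3 (0.39) and Ikbkb (0.15). They turned on slide 1, blocked or alone, for Nfkb2 (0.58), Rela (0.045), Relb (0.32), Nfkbib (0.18), Nfkbie (0.28) and Ikbkb (0.22). With a random slide block they turned for Nfkb2 (0.07) and Nfkbib (0.004). With the replicate block, whose numbers may not pair samples, they turned for Nfkb2 (0.18), Relb (0.027), Nfkbib (0.0094) and Ikbkb (0.039). The cause of these changes was not tested. Tnfaip3 could not be fitted where detection on 12 arrays was required; on the arrays of fipronil replicates 2 and 3 it was not well above background.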
